A study of Homo sapiens with 6 samples.

Results

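The genes described here are 60 genes of the mitotic apparatus in MiaPaCa-2, an established human pancreatic cancer cell line of epithelial origin: the kinases and cyclins that drive entry into mitosis, the spindle checkpoint, the kinetochore, the spindle motors, condensin and the transcription factors FOXM1 and MYBL2. They form a list of names with no threshold on a measured value, and were matched by Ensembl identifier to 60 of the 60668 genes in the deposited table, in 11 groups by role. The list was chosen with earlier results of these data known, so its share of calls is a description and not an independent test. The cells spent 48 h in medium with 2.5 mM glucose (low glucose, 3 libraries) or 25 mM glucose (control, 3 libraries), after which total RNA was sequenced from libraries that keep the strand. The labels list no edited gene and no drug for any of these libraries. One field of the labels assigns 2.5 mM to each of the 6 samples, but 3 titles say control, and the study's methods give 25 mM for control medium.

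Mitosis is run by a small set of enzymes and machines whose transcripts are made mostly late in the cell cycle. Cyclin-dependent kinase 1 with cyclin B starts it, Polo-like and Aurora kinases build the spindle, kinesins move its microtubules, the kinetochore joins chromosomes to them, the spindle checkpoint delays separation until every chromosome is attached, and condensin compacts the chromosomes. The transcripts are turned on together by the MuvB core with MYBL2 and FOXM1, and are turned off when the same core forms the DREAM complex in cells that leave the cycle, for which reason their summed level is widely used as a measure of proliferation in tumours.

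Reads on genes numbered 9741183, 10126218 and 10190154 in the control libraries and, in the low-glucose libraries, 10841656 (replicate 1), 10595408 (replicate 2) and 13733477. Values of single libraries are given below in this order. They are normalised read counts, that is, reads divided by 1 size factor for each library, and every value in the table came out as a whole number of reads within 0.1 of a read. Only the columns of low-glucose replicates 1 and 2 are named in the labels, and the other 4 were placed by column names that run in threes by condition. The study describes its RNA-seq samples as biological replicates, and the labels do not say whether they came from separate cultures, so the p-values measure the spread between these libraries. Libraries of 1 condition differed by more than counting noise, with a chi-square per degree of freedom of 4.63 to 18.95 between control libraries and 1.90 to 2.89 between low-glucose libraries, over genes with at least 20 reads in the pair. The keratin KRT8 was at 20549 to 46963 and vimentin (VIM) at 57844 to 82510.5, whereas the epithelial surface markers EPCAM and CDH1 had at most 2.27. Values of the other listed keratins, KRT18 and KRT19, are not given here. CDKN2A, which is deleted in MiaPaCa-2, had no read in any library. The markers of acinar, immune and fibroblast cells PRSS1, CPA1, CELA3A, PTPRC, CD3E, DCN and LUM had at most 0.988, and CD68 and COL1A1 at most 16.8. Among the other listed markers, COL1A2 had 1916 to 2872 and the endothelial gene CDH5 had 155 to 184 in control but 9.62 to 12.1 under low glucose, with PECAM1 at no more than 3.34.

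Most of the mitotic transcripts fell in low glucose. The question was how far the low-glucose response reached the machinery of cell division, and whether its parts moved alike. All 60 genes passed the filter of a mean normalised count of at least 1, and 55 were called lower, 0 higher and 5 not called by limma on log2(normalised count + 1) at a Benjamini-Hochberg adjusted p under 0.05 over 21101 genes. Of all genes tested, 16.2% were called lower and 14.7% higher, and 30.0% were called lower among 10149 genes whose mean was 100 or more. At an unadjusted p under 0.05, 57 of the 60 genes were lower and 0 were higher, a count whose share over all genes is not given here. Of the 60, edgeR and DESeq2 likewise called 0 higher, with 56 and 54 lower. Over all genes and in both directions, edgeR called 6554 of the 15322 it tested, and DESeq2 called 5486. In median, the log2 fold change of these 60 was -0.79, beside 0.05 over all genes tested and -0.08 over those with a mean of 100 or more. The 3 low-glucose values lay below all 3 control values for 56 of the 60 genes, as they did for 21.8% of all genes. A log2 fold change of -1 or less together with the test was reached by 16 genes, against 1.41% of all genes, and 35 genes lay between -1 and -0.5. Under library-size scaling 52 of the 60 genes were called lower, while the calls over all genes turned from 3111 higher and 3417 lower to 3935 higher and 2647 lower. Of the 60 genes, 18 shared exon bases with a gene on the other strand, which had at least 20% of the member's reads for 14 of them. In bulk RNA, fewer cells in or near mitosis and less transcript in each such cell cannot be told apart.

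As a share of all reads, the 60 genes took 1.05%, 1.07% and 0.997% in the 3 control libraries and 0.597%, 0.618% and 0.641% in the 3 low-glucose libraries. The shares did not overlap between the conditions. This share depends on the reads of all other genes and not on the size factors. The spread between libraries was larger in control, where the median coefficient of variation of the 60 genes was 9.70%, than in low glucose, where it was 5.12%, and the control value was the larger for 44 genes.

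**Figure D1:**
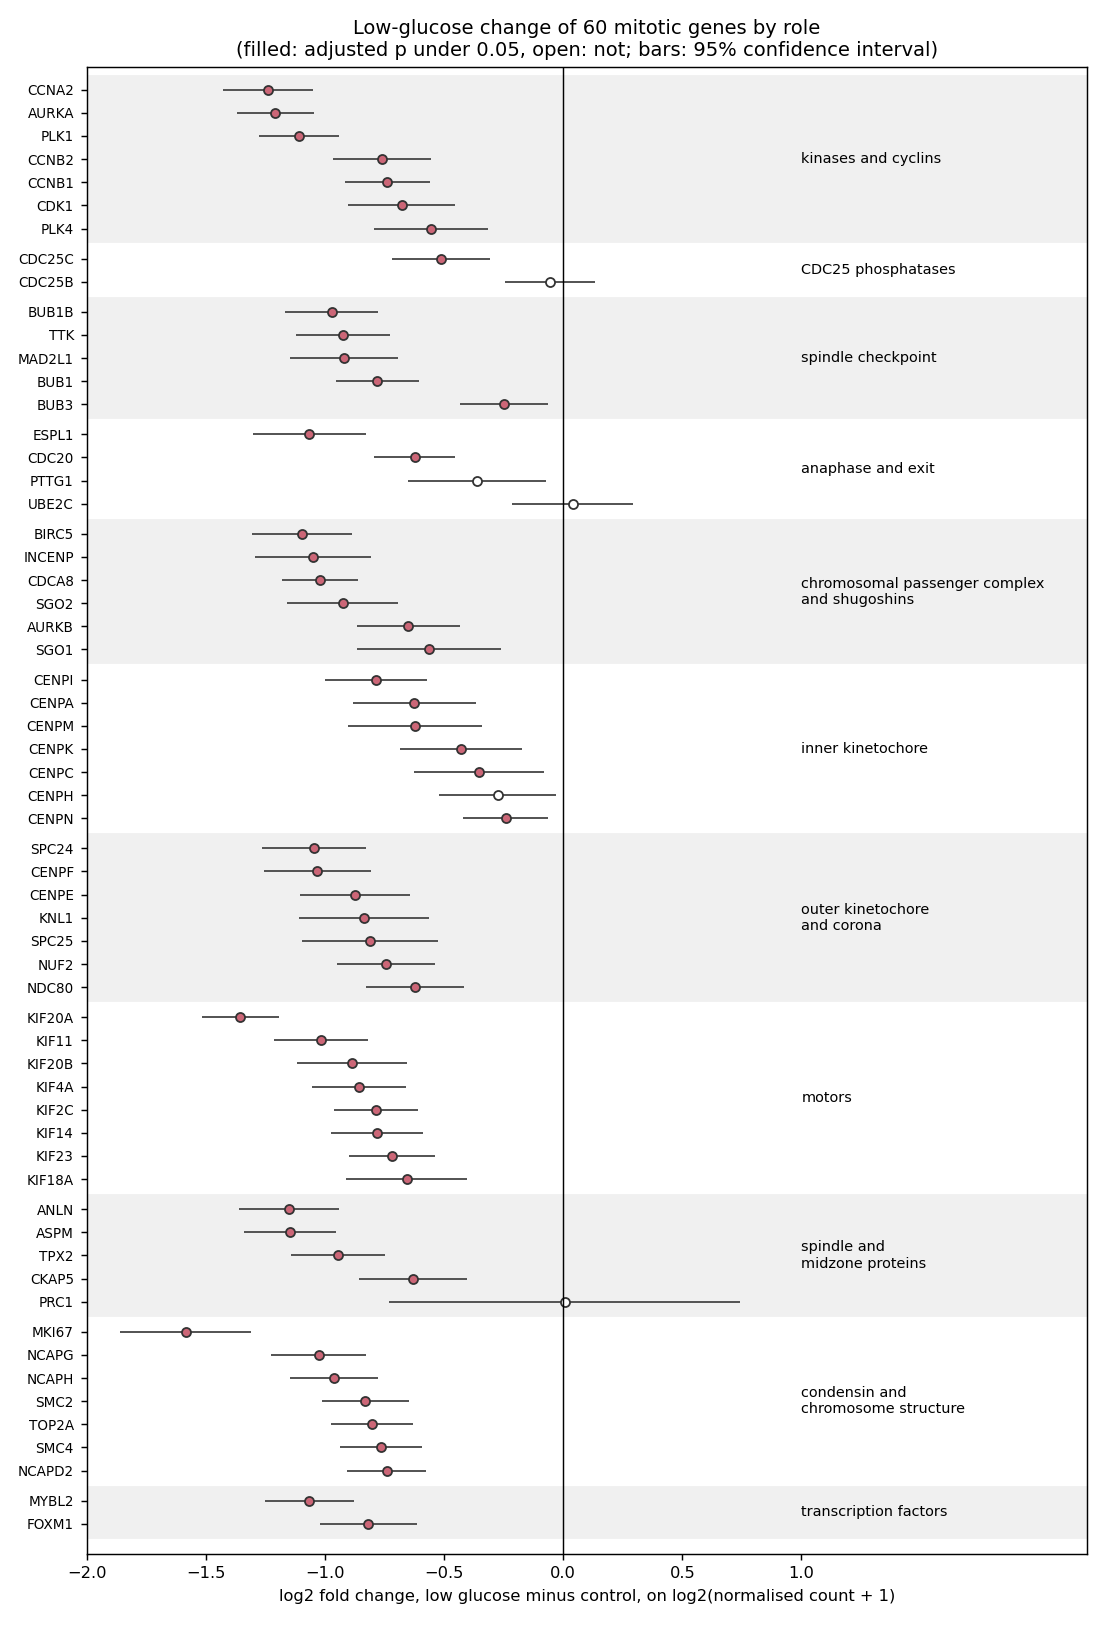
The x axis gives the log2 fold change of each of the 60 genes (low glucose minus control, on log2 of the normalised count plus 1) with its 95% confidence interval, and the rows are grouped by role. The 55 filled points passed the test and lie to the left of 0, from MKI67 at -1.58 to CENPN at -0.24, and the 5 open points did not pass it.

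The 11 role groups did not move by the same amount, although differences between groups were not tested. All measured members were called lower among the kinases and cyclins (7 of 7, median -0.76), the spindle checkpoint (5 of 5, median -0.92), the chromosomal passenger complex and shugoshins (6 of 6, median -0.97), the outer kinetochore and corona (7 of 7, median -0.83), the motors (8 of 8, median -0.82), condensin and chromosome structure (7 of 7, median -0.83) and the 2 transcription factors (median -0.94). The spindle and midzone proteins had 4 of 5 called lower with a median of -0.94. The inner kinetochore had 6 of 7 with a median of -0.43, and its largest change was -0.79. Of the anaphase and exit genes 2 of 4 were called (median -0.49), and of the CDC25 phosphatases 1 of 2 (median -0.28).

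Because these transcripts are known to share promoter elements, the promoters of 6 of them are shown, chosen to span the kinases, anaphase, motors and chromosome structure. Each stretch is the 150 bases before the RefSeq transcription start (assembly GRCh38.p14), read 5′ to 3′ on the gene's strand. Capitals mark the cell cycle genes homology region (CHR, TTTGAA or its reverse complement TTCAAA), the element that the MuvB core binds, and the CCAAT box (CCAAT or its reverse complement ATTGG), the element of NF-Y.
CCNB2, chr15:59104996-59105145, plus strand: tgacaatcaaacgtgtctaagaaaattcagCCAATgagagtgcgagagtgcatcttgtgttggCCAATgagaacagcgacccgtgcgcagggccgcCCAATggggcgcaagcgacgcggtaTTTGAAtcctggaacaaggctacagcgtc
PLK1, chr16:23678739-23678888, plus strand: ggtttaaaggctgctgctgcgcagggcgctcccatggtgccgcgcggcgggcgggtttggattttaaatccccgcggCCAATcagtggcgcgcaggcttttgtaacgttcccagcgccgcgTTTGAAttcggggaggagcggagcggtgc
CDC20, chr1:43358831-43358980, plus strand: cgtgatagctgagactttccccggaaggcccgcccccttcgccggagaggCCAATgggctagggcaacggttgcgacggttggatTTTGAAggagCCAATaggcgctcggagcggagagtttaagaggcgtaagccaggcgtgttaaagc
KIF20A, chr5:138178962-138179111, plus strand: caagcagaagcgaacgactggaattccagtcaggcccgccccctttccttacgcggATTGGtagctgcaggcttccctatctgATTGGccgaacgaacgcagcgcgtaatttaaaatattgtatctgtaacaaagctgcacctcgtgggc
TOP2A, chr17:40417897-40418046, minus strand: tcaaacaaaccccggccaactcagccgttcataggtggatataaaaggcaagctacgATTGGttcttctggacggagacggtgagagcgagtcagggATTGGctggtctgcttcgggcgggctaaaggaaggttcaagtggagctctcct
MKI67, chr10:128126424-128126573, minus strand: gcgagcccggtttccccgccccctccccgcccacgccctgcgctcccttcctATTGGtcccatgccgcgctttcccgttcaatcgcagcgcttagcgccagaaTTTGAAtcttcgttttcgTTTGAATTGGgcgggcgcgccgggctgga

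The first base of a CHR stood at -29 in CCNB2 and in PLK1, counted from the start, with CCAAT boxes further upstream. MKI67 held a CHR at -47 and at -29, the second of which overlapped a CCAAT box at -24 in 1 run of capitals. In CDC20 the CHR nearest the start was at -65. No match to the CHR letters was found in the KIF20A window, which held CCAAT boxes at -94 and -67, and the matches to the CHR in TOP2A began at -194 and -151, so that the first lies upstream of the stretch shown and the second is cut by its 5′ end and left in lower case.

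RefSeq windows from 250 bases before to 50 bases after the start were matched by symbol for 50 of the 60 genes, which have 64 windows, and none was matched for AURKA, TTK, BUB3, UBE2C, BIRC5, CENPH, CENPM, KNL1, TPX2 and FOXM1. A CHR was present in 36 of the 64 windows (56.25%), and in 15.2% of the 35116 windows of all genes. A CCAAT box was present in 45 of the 64 (70.3%), against 34.6% of all windows, and both were present in 28 (43.75%), against 5.90%. Of the 45 CHR matches in these genes, 27 began within 100 bases before the start. The size of the change was close with and without a motif. Genes with a CHR in any window had a median log2 fold change of -0.79 (34 genes), as did those without (-0.79), and the medians with and without a CCAAT box were -0.78 and -0.83. These matches are letters in a window, and binding was not measured here.

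Entry into mitosis came first in the order of roles. Cyclin A2, CCNA2 (chr4:121816444-121823883), which activates CDK2 and CDK1 in S and G2 phase, had normalised counts of 1384, 1535 and 1299 in control and 557, 597 and 629 in low glucose. All 3 low-glucose libraries lay below the lowest control library, and the log2 fold change of -1.24 (SE 0.087, adjusted p = 2.21e-07) was the largest fall among kinases and cyclins. CCNA2 shared 254 exon bases with EXOSC9 on the other strand, which had 38.2% of its reads and a log2 fold change of -0.72. Aurora A, AURKA (chr20:56369389-56392337), the kinase of centrosome maturation and spindle poles, had normalised counts of 2292, 2177 and 2256 in control and 948, 946 and 1018 in low glucose, a log2 fold change of -1.21 (SE 0.074, adjusted p = 5.21e-08). The low-glucose mean of AURKA was 43.3% of the control mean, and the highest low-glucose library was far under the lowest control library. Cyclin B1, CCNB1 (chr5:69167135-69178245), the partner of CDK1 that accumulates in G2 and is destroyed at anaphase, had the highest level of the group, with normalised counts of 4668, 4128 and 4980.4 in control and 2692, 2781 and 2761 in low glucose. It changed by -0.74 on the log2 scale (SE 0.081, adjusted p = 1.13e-05). Its paralog CCNB2 (chr15:59105126-59125045) had normalised counts of 1140.1, 985 and 1256 in control and 700.3, 640.1 and 645 in low glucose and a log2 fold change of -0.76 (SE 0.094, adjusted p = 3.13e-05). Polo-like kinase 4, PLK4 (chr4:127880893-127899224), which starts centriole duplication, had the smallest change of the group, -0.56 on the log2 scale (SE 0.11, adjusted p = 0.0014), with normalised counts of 297, 249.7 and 278 in control and 188, 181 and 191 in low glucose. The groups of libraries did not overlap for any of these genes. The log2 fold change was -1.11 (SE 0.076, adjusted p = 1.83e-07) for PLK1, which promotes entry and spindle assembly, and -0.68 (SE 0.10, adjusted p = 0.000183) for CDK1 itself.

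The CDC25 phosphatases remove the inhibitory phosphates of CDK1, and of the 2 in this list CDC25C was called and CDC25B was not. The family's other member, CDC25A, was called lower at -1.31 on the log2 scale and is counted with the wider mitotic genes below. CDC25C (chr5:138285269-138338355) had normalised counts of 349.8, 349 and 353 in control and 240.5, 244 and 252 in low glucose, with a log2 fold change of -0.51 (SE 0.094, adjusted p = 0.000816). CDC25B (chr20:3786772-3806121) had normalised counts of 3266, 3736 and 2981 in control and 3065, 3286 and 3221 in low glucose, so that the conditions overlapped, and its log2 fold change was -0.055 (SE 0.086, adjusted p = 0.677) with a 95% interval of -0.24 to 0.13. CDC25B was the more abundant, at 257 ± 29.4 TPM in control and 236 ± 7.36 TPM in low glucose (mean ± SD, n = 3), where TPM is the transcript level scaled for exon length and library, computed from the recovered reads. CDC25C shared 293 exon bases with FAM53C on the other strand, which had 443% of its reads and a log2 fold change of -0.28, and the strand setting of the counting is not given in the sources used here.

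The spindle checkpoint fell as a group, with BUB3 as the smallest change. BUBR1, BUB1B (chr15:40161023-40221123), which holds the anaphase-promoting complex (APC/C) in check, had normalised counts of 1000.0, 1014 and 879.5 in control and 466, 480.1 and 526 in low glucose, without overlap, and a log2 fold change of -0.97 (SE 0.089, adjusted p = 2.17e-06). BUB1 (chr2:110637528-110678063), the kinase that brings the checkpoint to kinetochores, had normalised counts of 2084, 2323 and 2116 in control and 1174, 1297 and 1323 in low glucose and a log2 fold change of -0.78 (SE 0.079, adjusted p = 5.79e-06). BUB3 (chr10:123154402-123170467), the scaffold that binds both of these, had normalised counts of 2302, 2015 and 2442 in control and 1827, 1856 and 1989.7 in low glucose. Its libraries did not overlap, but the log2 fold change was only -0.25 (SE 0.084, adjusted p = 0.0355), and this call was lost in 9 of the 16 other fits described in the closing section. TTK (MPS1), the kinase at the top of the checkpoint, changed by -0.92 on the log2 scale (SE 0.091, adjusted p = 4.31e-06), and MAD2L1, which binds CDC20 when a kinetochore is unattached, by -0.92 on the log2 scale (SE 0.10, adjusted p = 1.42e-05).

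Anaphase and exit genes were divided. Separase, ESPL1 (chr12:53268299-53293638), the protease that cuts cohesin, had normalised counts of 782, 863 and 667 in control and 325, 397 and 378 in low glucose and a log2 fold change of -1.07 (SE 0.11, adjusted p = 6.02e-06). CDC20 (chr1:43358981-43363203), the activator of the APC/C, had the highest TPM of the 60 genes in control, with normalised counts of 4088, 4176 and 4696 in control and 2768, 2868 and 2763 in low glucose and a log2 fold change of -0.62 (SE 0.077, adjusted p = 3.06e-05). UBE2C, the E2 enzyme that the APC/C uses, is at chr20:45812576-45816957 and had normalised counts of 1832, 1409 and 2147 in control and 1847, 1759 and 1852 in low glucose. The low-glucose values of UBE2C lay inside the range of the control values, with a log2 fold change of 0.04 (SE 0.12, adjusted p = 0.835) and a 95% interval of -0.21 to 0.29. Per length, UBE2C had rank 4 of the 60 genes in control (421 ± 86.2 TPM) and rank 1 in low glucose (409 ± 16.1 TPM), where CDC20 had 402 ± 4.16 TPM and did not differ from it beyond their spread. Securin (PTTG1), the inhibitor of separase, had a log2 fold change of -0.36 (SE 0.13, adjusted p = 0.0529). PTTG1 had normalised counts of 1164, 854 and 1417 in control and 872, 865 and 877 in low glucose, and the lowest control library was under all low-glucose libraries. That library, of 10126218 reads, was the lowest control library for UBE2C too. Without it, the log2 fold change was -0.56 for PTTG1 (limma adjusted p = 9.41e-07) and -0.13 for UBE2C (adjusted p = 0.168). These were the lowest values of both genes over the 17 fits of the closing section. The highest were -0.19 for PTTG1 and 0.18 for UBE2C, and the fits that called them lower numbered 6 and 0.

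Members of the chromosomal passenger complex, which corrects wrong attachments and then directs cytokinesis, fell by different amounts. Survivin, BIRC5 (chr17:78214186-78225636), had normalised counts of 2406, 2814 and 2094 in control and 1143, 1153 and 1097 in low glucose, and its log2 fold change of -1.10 (SE 0.096, adjusted p = 1.54e-06) was the largest of the complex. Borealin, CDCA8 (chr1:37692481-37709719), had normalised counts of 1553, 1589 and 1588 in control and 781, 764 and 788 in low glucose, with the control libraries close together (SD 20.8) and a log2 fold change of -1.02 (SE 0.073, adjusted p = 2.45e-07). INCENP, the scaffold, changed by -1.05 on the log2 scale (SE 0.11, adjusted p = 8.25e-06). The kinase of the complex, AURKB (chr17:8204733-8210600), had normalised counts of 1160.3, 1032 and 1396 in control and 746, 749 and 774 in low glucose. Its log2 fold change of -0.65 (SE 0.10, adjusted p = 0.000196) was the smallest of the complex, a difference that was not tested. Over the 17 fits of the closing section, AURKB ran from -0.79, with a trend with transcript length removed, to -0.53. The highest values of INCENP, CDCA8 and BIRC5 over those fits were -0.91, -0.94 and -0.99. Of the shugoshins, which protect cohesin at centromeres, SGO2 (chr2:200510008-200584096) had normalised counts of 790.3, 816 and 641 in control and 366, 375 and 437 in low glucose and a log2 fold change of -0.93 (SE 0.11, adjusted p = 1.8e-05). SGO1 (chr3:20160593-20186206) was low, with normalised counts of 159, 146 and 127 in control and 99.1, 96.8 and 94.7 in low glucose and a log2 fold change of -0.56 (SE 0.14, adjusted p = 0.00652). SGO1 shared 593 exon bases with SGO1-AS1 on the other strand, which had 47.6% of its reads and a log2 fold change of -0.77.

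Between paralogs, the ratio within a library was compared by an exact two-sided permutation test over 3 against 3 libraries, which cannot give a p below 0.1, with adjustment over 4 pairs. The log2 ratio of CCNB1 to CCNB2 was 2.03 ± 0.040 in control and 2.05 ± 0.096 in low glucose (mean ± SD, n = 3), a difference of 0.024 (exact p = 0.7, adjusted p = 0.7), which was smaller than either SD. The log2 ratio of AURKA to AURKB was 0.98, 1.08 and 0.69 in control and 0.34, 0.34 and 0.40 in low glucose, without overlap and with a difference of -0.56 (exact p = 0.1, adjusted p = 0.133). CDC25B against CDC25C differed by 0.46 and SGO1 against SGO2 by 0.36, each without overlap (exact p = 0.1 and adjusted p = 0.133 for both). None of the 4 passed 0.05, which this design cannot reach.

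The kinetochore changed more at its outer face than at its inner plate in median, -0.83 against -0.43, a difference that was not tested. The inner kinetochore is built on the centromeric histone CENPA (chr2:26764289-26801067), which had normalised counts of 534, 416 and 557 in control and 332, 349.7 and 290.2 in low glucose and a log2 fold change of -0.62 (SE 0.12, adjusted p = 0.00106). CENPI (chrX:101098188-101166126), a subunit of the constitutive network on this histone, had normalised counts of 397, 468 and 417 in control and 240.5, 254 and 247 in low glucose, and at -0.79 on the log2 scale (SE 0.099, adjusted p = 3.65e-05) it changed most of the 7. CENPN (chr16:81006552-81033114), which reads the CENP-A nucleosome, changed least, with normalised counts of 908, 898 and 869 in control and 734, 713 and 818 in low glucose and a log2 fold change of -0.24 (SE 0.082, adjusted p = 0.0358). CENPN shared 240 exon bases with CMC2 on the other strand, which had 29.4% of its reads and a log2 fold change of -0.01. For CENPN the smallest gap between the conditions was that between 818 in low glucose and 869 in control. CENPM and CENPK had log2 fold changes of -0.62 (SE 0.13, adjusted p = 0.00209) and -0.43 (SE 0.12, adjusted p = 0.0128). CENPC, the linker to the outer layer, had -0.35 on the log2 scale (SE 0.12, adjusted p = 0.0436), and CENPH was not called at -0.28 on the log2 scale (SE 0.11, adjusted p = 0.0793) although its libraries did not overlap. CENPC was the least abundant of the called genes per length, at 5.92 ± 0.409 TPM in control and 4.43 ± 0.245 TPM in low glucose. The calls of CENPC, CENPN and CENPK were lost in 10, 6 and 4 of the 16 other fits, so that the inner kinetochore held 3 of the 4 genes whose call as lower was lost in any fit, the other being BUB3.

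Every measured gene of the outer kinetochore and corona was called lower in the main fit and in all 16 others. Of the NDC80 complex, the rod that grips microtubules, SPC24 (chr19:11131520-11155807) had normalised counts of 499, 473 and 452 in control and 229, 249 and 211 in low glucose and the largest change, -1.04 on the log2 scale (SE 0.10, adjusted p = 3.19e-06). NDC80 (chr18:2571557-2616635) itself changed least of the group, with normalised counts of 824, 720.0 and 763 in control and 445, 541 and 514 in low glucose and a log2 fold change of -0.62 (SE 0.095, adjusted p = 0.000187). NUF2 and SPC25, the other subunits, had log2 fold changes of -0.74 and -0.81. Per length the complex stood at 45.9 to 83.8 TPM per subunit in control and 23.4 to 47.7 TPM in low glucose, where NUF2 was highest in both. CENPF (chr1:214603185-214664574), a large protein of the corona, had the highest level of the group with normalised counts of 3736, 4365 and 3103 in control and 1792, 1888 and 1747 in low glucose, a spread of control libraries that reached 631 (SD), and a log2 fold change of -1.03 (SE 0.10, adjusted p = 4.97e-06). KNL1, the platform of the checkpoint proteins, and CENPE, the kinesin of the corona, changed by -0.83 and -0.87.

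**Figure D2:**
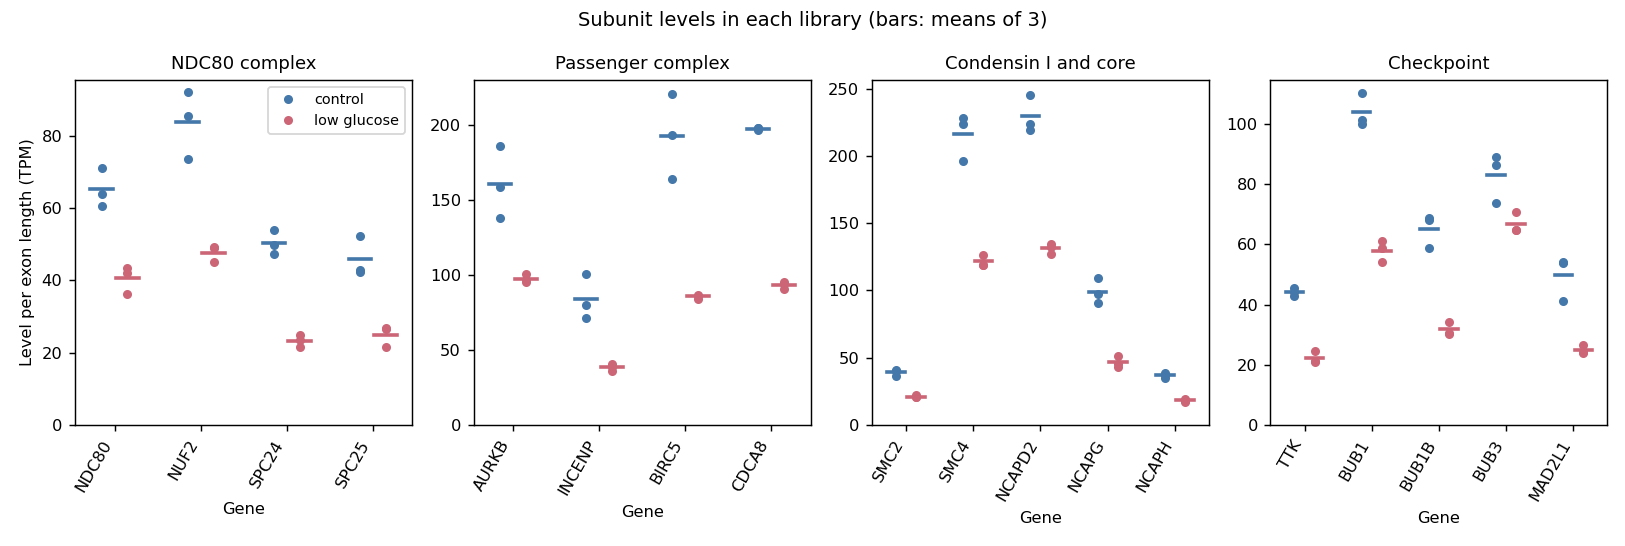
Points give the TPM of each subunit in each library (y axis, from 0; blue control, red low glucose) and bars the means of 3 libraries, for the NDC80 complex, the passenger complex, condensin and the checkpoint. In every panel the red points lie under the blue ones, and the narrowest gap is that of BUB3, at 83.1 TPM in control and 66.8 TPM in low glucose.

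The 8 mitotic kinesins fell by 0.66 to 1.35 on the log2 scale. MKLP2, KIF20A (chr5:138178719-138187723), which carries the passenger complex to the midzone, had normalised counts of 2488, 2463 and 2419 in control and 913, 965 and 1004 in low glucose, and its log2 fold change of -1.35 (SE 0.073, adjusted p = 1.76e-08) was the second largest of the 60 genes. Its low-glucose mean was 39.1% of control, with an SD of 34.7 in control and 45.7 in low glucose. The gene shared 132 exon bases with BRD8 and 74 with CDC23 on the other strand, whose reads were 80.2% and 42.1% of its own and whose log2 fold changes were -0.26 and -0.45. KIF18A (chr11:28020619-28108156), which dampens chromosome oscillation at the plate, changed least of the kinesins, with normalised counts of 378, 338 and 339 in control and 205, 261 and 205 in low glucose and a log2 fold change of -0.66 (SE 0.12, adjusted p = 0.000611). KIF11 (Eg5), the motor that drives the poles apart, changed by -1.02 on the log2 scale (SE 0.090, adjusted p = 1.74e-06), and KIF23 (MKLP1) of the central spindle by -0.72 on the log2 scale (SE 0.082, adjusted p = 1.6e-05). The other kinesins, KIF20B, KIF4A, KIF2C and KIF14, had log2 fold changes of -0.89, -0.86, -0.79 and -0.78. KIF2C shared exon bases with a lncRNA on the other strand that had 166% of its reads and a log2 fold change of -0.05.

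Among spindle and midzone proteins, anillin, ANLN (chr7:36389821-36453791), the scaffold of the contractile ring, had normalised counts of 4886, 5384 and 4429 in control and 1985, 2154 and 2484 in low glucose and a log2 fold change of -1.15 (SE 0.095, adjusted p = 8.98e-07). TPX2 (chr20:31739271-31801805), which activates Aurora A on spindle microtubules, had normalised counts of 4911, 5582 and 4376 in control and 2435, 2582 and 2682 in low glucose and a log2 fold change of -0.94 (SE 0.090, adjusted p = 3.19e-06). It was the most abundant of the group, at 415 ± 50.9 TPM in control and 206 ± 10.6 TPM in low glucose. ASPM of the spindle poles changed by -1.15 on the log2 scale (SE 0.089, adjusted p = 4.84e-07), and CKAP5, the microtubule polymerase, by -0.63 on the log2 scale (SE 0.10, adjusted p = 0.000347). PRC1, the crosslinker of the midzone, has no reliable value in this table. The gene had 17 to 37 reads in a library. Its antisense neighbour PRC1-AS1, which shares 1892 exon bases with it, had 741 to 1055 reads and a log2 fold change of -0.56 (limma adjusted p = 9.83e-05). A second gene model on the same strand, ENSG00000284946, had 49 to 74 reads and a log2 fold change of -0.26 (limma adjusted p = 0.345). The sources do not say how reads were divided among these models in this table. RSEM, which shares out reads between overlapping transcripts, is among the software the study lists. The log2 fold change of PRC1 of 0.007 (SE 0.34, adjusted p = 0.991) had a 95% interval of -0.72 to 0.74.

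Condensin and chromosome structure genes were lower throughout. Ki-67, MKI67 (chr10:128096659-128126423), which coats mitotic chromosomes, had normalised counts of 5858, 7612 and 4784 in control and 1941, 2139 and 1906 in low glucose, and the log2 fold change of -1.58 (SE 0.13, adjusted p = 6.37e-07) was the largest of the 60 genes. The low-glucose libraries stood at 32.8% of control. The control libraries themselves spread from 4784 to 7612. Topoisomerase II alpha, TOP2A (chr17:40388525-40417896), which untangles sister chromatids, had the highest normalised counts of all 60 genes, with normalised counts of 8845, 8808 and 8236 in control and 4769, 4749.5 and 5337 in low glucose, and a log2 fold change of -0.80 (SE 0.079, adjusted p = 4.2e-06). The condensin I subunit NCAPD2 (chr12:6493356-6531955) had normalised counts of 4722, 5301 and 4754 in control and 2836, 3007 and 2989.9 in low glucose, a log2 fold change of -0.74 (SE 0.076, adjusted p = 6.31e-06). It shared 383 exon bases with MRPL51 on the other strand, which had 35.6% of its reads and a log2 fold change of -0.14. The other condensin subunits NCAPG, NCAPH, SMC2 and SMC4 had log2 fold changes of -1.02, -0.96, -0.83 and -0.77. NCAPD2 and SMC4 were the more abundant per length in control (230 ± 13.9 and 216 ± 17.0 TPM), and NCAPH and SMC2 the less (36.9 ± 2.05 and 39.2 ± 2.49 TPM).

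Both transcription factors of the mitotic programme were lower. FOXM1 (chr12:2857680-2877174) had normalised counts of 3218, 3832 and 2955 in control and 1779.6, 1950.0 and 1917 in low glucose and a log2 fold change of -0.82 (SE 0.093, adjusted p = 1.46e-05). B-MYB, MYBL2 (chr20:43667019-43716495), had normalised counts of 4285, 5142 and 4195 in control and 2121, 2159 and 2200.4 in low glucose and a log2 fold change of -1.06 (SE 0.085, adjusted p = 6.37e-07). Its level per length was 493 ± 54.5 TPM in control and 225 ± 5.39 TPM in low glucose, rank 3 of the 60 genes in control. The conditions did not overlap for either gene. FOXM1 shared 782 exon bases with ITFG2 on the other strand, which had 39.9% of its reads and a log2 fold change of -0.43.

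**Figure D3:**
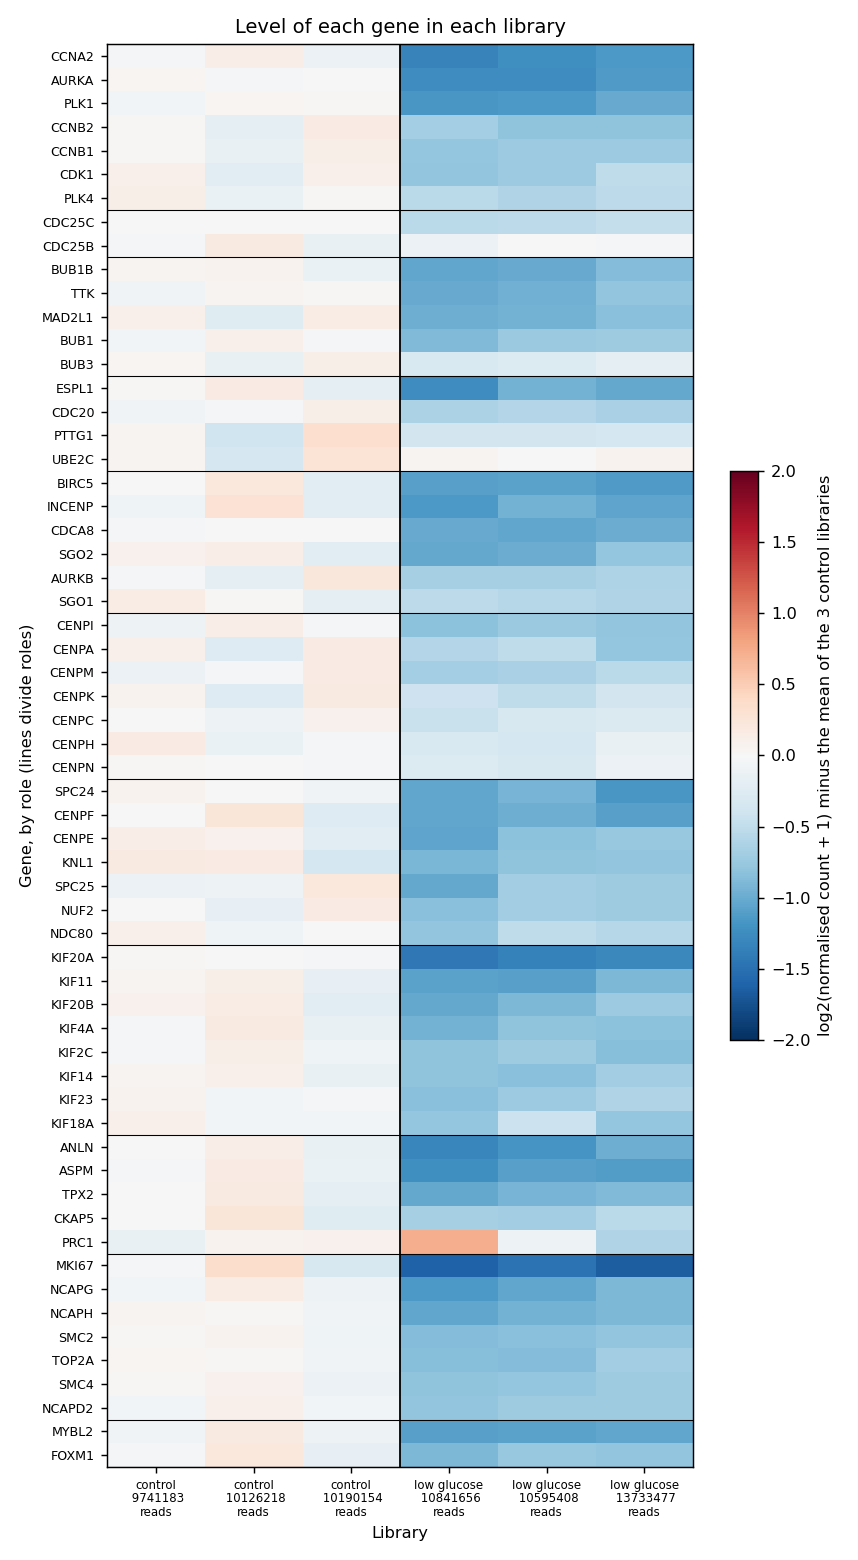
Colours give, for each of the 60 genes (rows, by role) in each of the 6 libraries (columns, named by condition and reads), the log2 of the normalised count plus 1 minus the mean of the 3 control libraries. Blue low-glucose columns stand against pale control columns except in CDC25B, UBE2C, PTTG1 and PRC1, whose conditions overlap, and the control library of 10126218 reads is the highest control library in 29 rows and the lowest in 19.

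Among the 60 genes, the control libraries differed from one another in a way that moved with transcript length. The control library of 10126218 reads was the highest control library for 29 of the 60 genes and the lowest for 19. Its 29 highest genes had longest transcripts of 4478 bases in median (Gencode v44) and its 19 lowest genes 2126 bases. The ranges overlapped, at 2371 to 12716 and 914 to 7703 bases. Across 59 genes, without PRC1, the log2 fold change had a Pearson correlation of -0.40 with the log2 transcript length and a Spearman correlation of -0.35, as a description over genes that share libraries. After a trend with length was removed from each library, a step chosen after seeing the data, the Pearson correlation was -0.24, and 56 of the 60 genes were called lower with a median log2 fold change of -0.84. The same step moved the calls over all genes from 3111 higher and 3417 lower to 2865 higher and 4249 lower. The median over 13769 genes with a mean of 20 or more moved from -0.024 to -0.075. PTTG1 and CENPH, whose longest transcripts are 1070 and 1354 bases, then had log2 fold changes of -0.51 and -0.41 and were called (limma adjusted p = 0.000765 and 0.00731), and UBE2C, at 914 bases, had -0.10 (adjusted p = 0.425). BUB3 was no longer called (adjusted p = 0.0553). The part of length in these differences was not tested further.

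**Figure D4:**
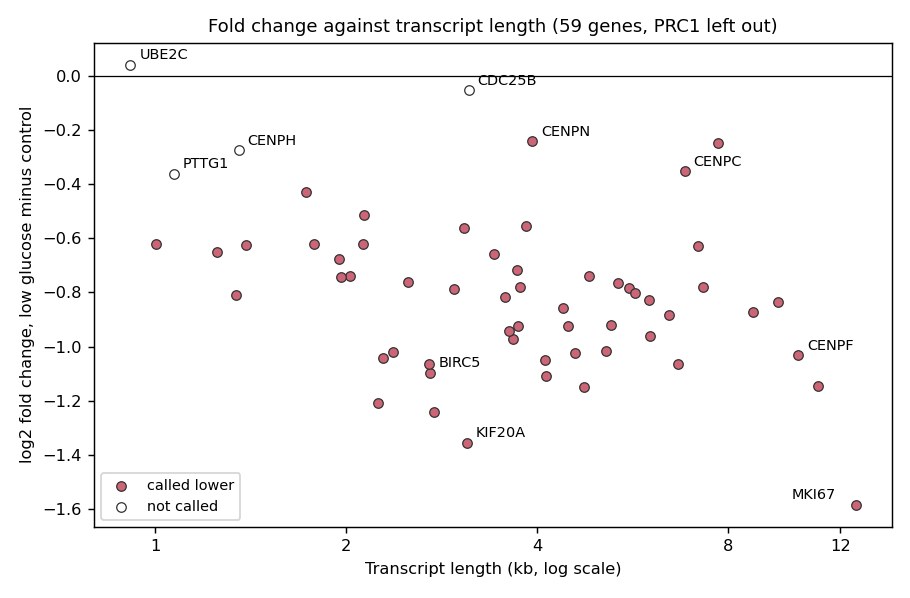
The x axis gives the length of the longest annotated transcript on a log scale and the y axis the log2 fold change (low glucose minus control) of 59 genes. The 3 shortest genes that were not called, UBE2C, PTTG1 and CENPH, stand at the upper left, and MKI67 at the lower right.

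Lists around the 60 genes gave the wider setting. Of all genes tested, 16.2% were called lower and 14.7% higher. Of the 10149 with a mean of 100 or more, 3049 were called lower and 1822 higher. No list was tested against these shares. Of 108 other genes of mitosis, 80 were called lower and 3 higher, with a median log2 fold change of -0.49. The largest changes with a mean of at least 100 were those of CDCA2 (-1.33), CDC25A (-1.31) and CCNF (-1.23), and the 3 that rose were ANAPC16 (0.62), CDC16 (0.24) and MIS12 (0.77), the first pair APC/C subunits and the last a kinetochore subunit. By family, 10 of 18 subunits and regulators of the APC/C were called lower (median -0.28), 11 of 14 entry regulators (-0.64), 21 of 28 other kinetochore subunits (-0.54), 23 of 31 other spindle, motor and cytokinesis genes (-0.50), and 15 of 17 genes of cohesin and condensin II (-0.52). Of 43 genes of DNA replication, 35 were called lower and 0 higher, with a median of -0.72, near that of the 60 mitotic genes. ORC1 (-1.48), MCM10 (-1.37) and MCM4 (-1.24) changed most.

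Subunits of the DREAM and MuvB complexes and NF-Y, 14 genes, had a median of -0.15, with 6 called lower (42.9%) and 0 higher. This stands beside 30.0% called lower among all genes with a mean of 100 or more. Among called genes with a mean of at least 100, the largest changes were log2 fold changes of -0.81 (SE 0.15, adjusted p = 0.00112) for LIN9 of the MuvB core, -0.59 (SE 0.075, adjusted p = 4.17e-05) for the E2F partner TFDP1 and -0.54 (SE 0.080, adjusted p = 0.000143) for NFYA of NF-Y. The highest value of the list was that of LIN37, which was not called at 0.68 on the log2 scale (SE 0.34, adjusted p = 0.152). E2F4, the DNA-binding subunit of DREAM, was not called at -0.15 on the log2 scale (SE 0.082, adjusted p = 0.193). Of 15 genes of G1 and arrest, 13 were tested, and 5 were called lower (38.5%) and 4 higher. The shares over all genes tested were 16.2% lower and 14.7% higher. The 30.0% is for genes with a mean of 100 or more, which not all of the 13 reached. Cyclin D2 (CCND2) had normalised counts of 10.1, 4.46 and 8.56 in control and 60.6, 52.4 and 56.1 in low glucose, the largest rise of the list at 2.78 on the log2 scale (SE 0.32, adjusted p = 1.75e-05), though under a mean of 100. The CDK inhibitor p21 (CDKN1A) had normalised counts of 83.0, 49.0 and 76.0 in control and 156, 117 and 123 in low glucose, a log2 fold change of 0.94 (SE 0.20, adjusted p = 0.00239). The inhibitor p27 (CDKN1B) had a log2 fold change of 0.36 (SE 0.082, adjusted p = 0.00433) and CDK6 of 0.51 (SE 0.11, adjusted p = 0.00204). The inhibitor p18 (CDKN2C) and cyclin D1 (CCND1) fell, with log2 fold changes of -1.09 (SE 0.11, adjusted p = 5.61e-06) and -0.80 (SE 0.11, adjusted p = 0.00011).

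**Figure D5:**
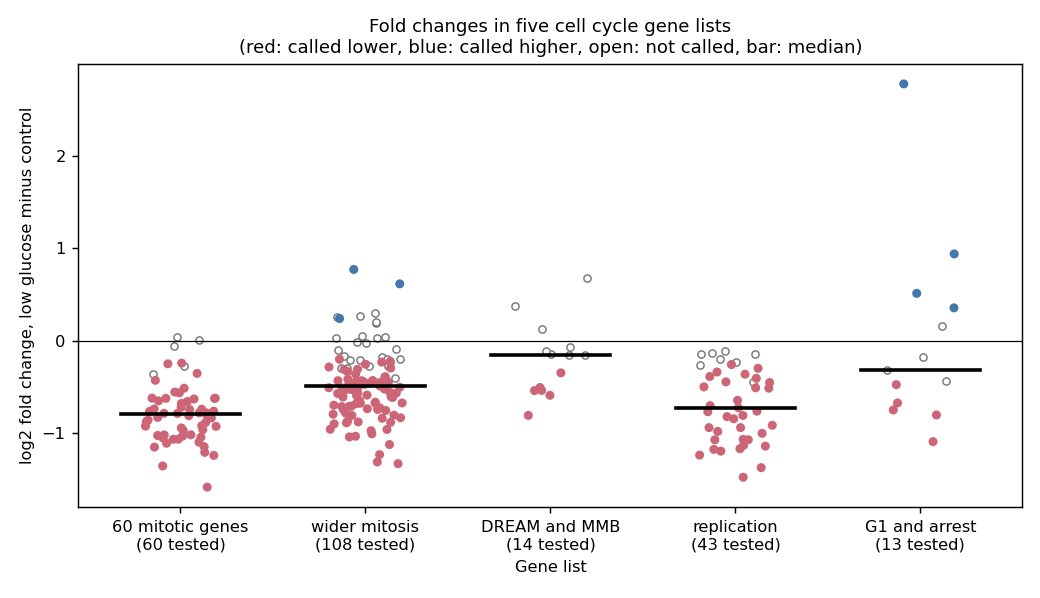
Points give the log2 fold change (y axis) of the tested genes of each list (x axis), red if called lower, blue if called higher and open if not called, and bars give the medians. The mitotic and replication lists have medians of -0.79 and -0.72, and the 4 blue points of the G1 and arrest list include CCND2 at 2.78.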

How the data were processed

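The authors sequenced strand-specific libraries (150-bp paired-end), trimmed them with Trim Galore, mapped them to hg38 with STAR 2.7.0e and compared the conditions with DESeq2. RSEM stands in the study's software list, but the methods do not say which tool made the counts in this table, and its strand setting and annotation are not given in the sources used here. The values deposited by the authors are a signal: gene counts divided by 1 size factor per library, with 100% of values whole reads within 0.1 in each library. Here, genes with a mean of at least 1 (21101) were tested on log2(value + 1) with limma 3.58.1 in R 4.3.3 (lmFit and eBayes with trend, two-sided, Benjamini-Hochberg adjustment, threshold 0.05), in a branch for normalised values, since the fixed design had foreseen more than 1 unit. Fold changes on this scale understate changes of low genes. Recovered reads were also tested with edgeR 4.0.16 and DESeq2 1.42.0. All 3 tests were checked on simulated data with the same dispersion in both conditions. That check cannot show how the tests behave under the unequal spread of these libraries. TPM used the union of exons in Gencode v44, which matched 99.4% of identifiers. The genes and lists were chosen with earlier results of these data known.

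Genes given with every library's value were, in each role, the most abundant by count and by TPM and those with the largest and smallest fold change, and 4 paralog pairs. Of other lists, the 3 called genes with the largest change and a mean of at least 100 were named, with CDKN1A, CDKN2A and E2F4. CCND2, CDK6, CDKN1B, LIN37, ANAPC16, CDC16, MIS12 and further single members were named after their values were seen. Not every gene on the other strand of a member is reported here. Tables were made with Python 3.11.15 and pandas 2.3.3.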

Additional observations from a re-analysis of the deposited data

How the results depend on the processing

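No paired analysis was possible because the columns of 4 of the 6 libraries carry no replicate number. Over 10 other settings with all libraries and 6 fits that left out 1 library each, the 60 genes had 51 to 57 called lower and 0 called higher, and 51 were called in every one of the 17 fits. Leaving out 1 library gave 51 to 57 called lower, 0 called higher, medians of -0.83 to -0.78, and 4319 to 7251 genes called across the table, against 6528. The lowest count, 4319, came without the low-glucose library of 10841656 reads. Library-size scaling gave a median of -0.71 for the 60 genes in place of -0.79 and turned the calls over all genes from 3111 higher and 3417 lower to 3935 higher and 2647 lower, as the median log2 fold change over 13769 genes (mean 20 or more) moved from -0.02 to 0.06. Without the trend in the variance model 4090 genes were called. With a log2 fold change of at least 1 required, 16 of the 60 genes and 1392 of all genes were called. Removal of a trend with transcript length or with GC content, both chosen after seeing the data, gave 56 called lower each. These steps also moved the calls over all genes, to 2865 higher and 4249 lower for length and 2669 higher and 4027 lower for GC content. Signs turned only for genes not called in the main fit. CDC25B had 0.026 under library-size scaling and, with 1 library left out, -0.131 to 0.032, the highest without the control library of 10126218 reads. UBE2C had -0.10 with the length trend removed, -0.036 with the GC trend removed and, with 1 library left out, -0.125 (without that same library) to 0.179. PRC1 had -0.023 and -0.050 with those trends removed, and -0.35 to 0.311 with 1 library left out. The cause of these differences was not tested, and for PRC1 counting error at 17 to 37 reads limits the value.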
